A study of Mus musculus with 12 samples.

Results

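The transcripts described here are 10 messenger RNAs that mice make from their mitochondrial DNA: mt-Nd1, mt-Nd2, mt-Nd5, mt-Nd6, mt-Cytb, mt-Co1, mt-Co2, mt-Co3, mt-Atp6 and mt-Atp8. They were chosen by name from the 23163 gene symbols of a count table, which lists 13 mitochondrially encoded genes in all. The other 3 enter only totals. RNA came from brown adipose tissue (BAT), fat that makes heat, and from subcutaneous white adipose tissue (sWAT), fat that mainly stores lipid. The animals were male C57Bl/6 wild-type mice, aged 8 to 12 weeks, which spent 72 hours either at 4 °C (cold) or at 30 °C (thermoneutral, where no extra heat is needed). The 4 groups were thermoneutral BAT, cold BAT, thermoneutral sWAT and cold sWAT, with 3 libraries each. The labels name 20 mice, 10 at each temperature, and do not say whether a library is 1 animal or a pool. A p-value below therefore measures the spread between these libraries, which may be technical.

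Mitochondrial DNA carries the genes for a few core subunits of the machinery that turns fuel into a proton gradient and the gradient into ATP. All other subunits are made from nuclear genes and imported. The mitochondrial RNA polymerase copies each strand into long precursors, which are cut, mostly at tRNAs, into single messengers, so that the level of a messenger depends on cutting and decay as well as on copying. In brown and beige fat cells the gradient is also released as heat through the uncoupling protein UCP1, and these cells are packed with mitochondria.

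Positions below are on mm10 chromosome M, from the GENCODE M21 annotation. These genes have no introns and lie nearly end to end, and some share bases. The sequences show where a read could belong to either of 2 members. In the stretch shared by mt-Atp8 and mt-Atp6 (chrM:7927-7969, plus strand) the capitals mark the start codon of mt-Atp6 and the stop codon of mt-Atp8. In the stretch shared by mt-Nd5 and mt-Nd6 (chrM:13552-13565, written on the plus strand) the capitals mark the stop codon of mt-Nd5, and mt-Nd6 is read from the opposite strand.
mt-Atp8 and mt-Atp6 overlap: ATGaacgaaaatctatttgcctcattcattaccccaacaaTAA
mt-Nd5 and mt-Nd6 overlap: ttaatctcgagTAA
The overlaps shown span 43 and 14 bases, and mt-Atp6 and mt-Co3 also share position 8607. Whether counting used the strand is not given in the sources used here, so reads of mt-Nd6 and reads copied from the other strand of the same stretch cannot be told apart. The nuclear genome also holds annotated copies of mitochondrial DNA. Stretches of 50 bases identical to an annotated nuclear copy covered 100% of mt-Co2, 99.9% of mt-Co3, 99.5% of mt-Atp6 and 51.1% of mt-Co1. They covered 8.19% of mt-Nd2 and 7.61% of mt-Nd5, and 0% of mt-Nd1, mt-Nd6, mt-Cytb and mt-Atp8. On chromosome 1 the copies Gm28437, Gm10925 and Gm28661 matched mt-Co3, mt-Atp6 and mt-Co2 with 0 mismatches over 783, 678 and 681 aligned bases. More diverged copies were not searched for. None of the 11 annotated copies found is listed in the count table. How reads matching both places were counted is not given in the sources used here, so counts of mt-Co2, mt-Co3, mt-Atp6 and part of mt-Co1 are less certain than those of the other 6.

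Libraries held 27117934 to 56243016 counts. Markers of the labelled tissues were present in each group. In all, 8 brown adipocyte genes summed to 5797 to 6221 CPM (counts scaled to library size) in thermoneutral BAT, 26126 to 29571 in cold BAT, 222 to 878 in thermoneutral sWAT and 4660 to 17477 in cold sWAT, and 7 white adipocyte genes to 1177 to 3140 CPM in BAT and 2414 to 3335 CPM in sWAT. No defining marker was at 0 in any group. The 3 thermoneutral sWAT libraries stood apart from the other 9. Counts of 84 ribosomal protein genes made up 7.25, 8.14 and 7.18% of them, against 0.338% to 1.85% elsewhere, and log2 CPM rose by 1.38, 1.12 and 0.814 for every 10 points of GC content, against −0.71 to 0.26 elsewhere. Whether these libraries share a batch is not given, and a batch and the temperature cannot be told apart there. Skeletal muscle markers (10 genes) summed to 105 to 4617 CPM in thermoneutral sWAT, 7357 to 20146 in cold sWAT, 3546 to 11558 in thermoneutral BAT and 4152 to 6265 in cold BAT. Muscle is itself rich in mitochondria, and the part of these cells in the results was not tested.

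The first question was how much of each library these transcripts filled. In BAT the 10 genes took 32.1, 34.2 and 15.6% of all counts in thermoneutral libraries 1, 2 and 3, and 22.4, 18.1 and 47.5% in cold libraries 1, 2 and 3. The groups overlapped, and library 3 was the lowest of the first and the highest of the second. In sWAT they took 0.167, 0.283 and 0.216% at thermoneutrality and 30.1, 17.97 and 21.3% in cold, so that each cold library lay far above each thermoneutral one. Cold sWAT overlapped with both BAT groups. Group means were 27.3% in thermoneutral BAT, 29.4% in cold BAT, 0.222% in thermoneutral sWAT and 23.1% in cold sWAT. Even in thermoneutral sWAT the 10 genes had 48991, 76823 and 62924 counts, so their make-up could be described there. In tissue RNA, fewer mitochondria-rich cells and less mitochondrial RNA per cell cannot be told apart. Nor can either be told apart from a technical difference of the thermoneutral sWAT libraries, whose ribosomal protein share and slope on GC content are given above.

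**Figure D1:**
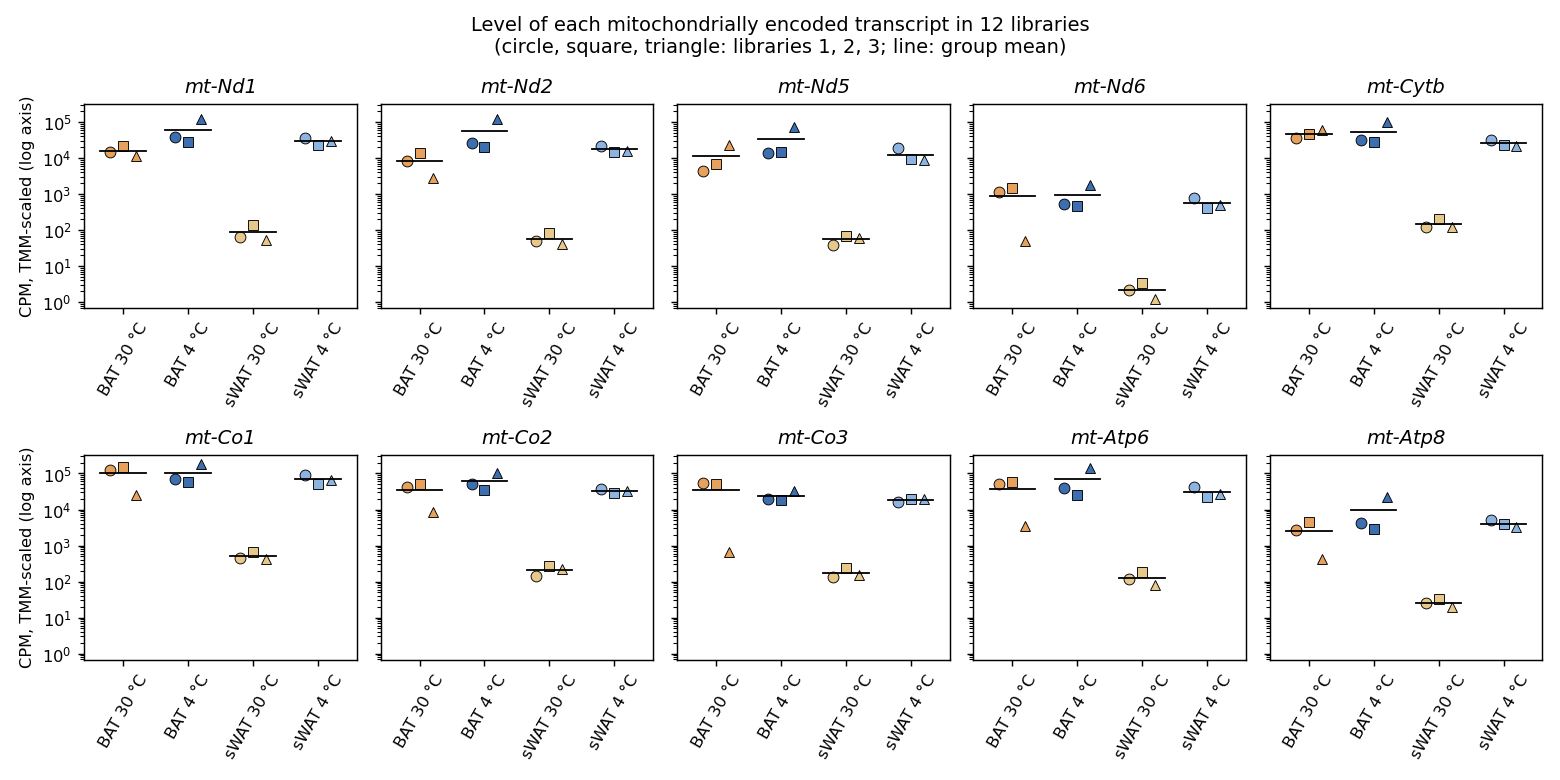
Level of each transcript in CPM on a log axis, with 1 panel per gene and 1 column per group; circles, squares and triangles are libraries 1, 2 and 3, and lines are group means. The group mean of thermoneutral sWAT lies far below the other group means in all 10 panels, and thermoneutral BAT library 3 falls away from libraries 1 and 2 most for mt-Co3 and mt-Nd6 and lies above them for mt-Nd5 and mt-Cytb.

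Ratios between the 10 genes within a library do not depend on how libraries are scaled. They can still depend on a library's slope on GC content, since GC content ran from 31.9% for mt-Atp8 to 39.9% for mt-Co1. No offsets for GC content were applied to shares or ratios, and the part of GC content in them was not tested. Outside thermoneutral BAT library 3, libraries of 1 temperature from different tissues were on the whole more alike than libraries of 1 tissue at different temperatures. The measure was the summed absolute difference between the shares of the 10 genes in a pair of libraries, divided by 2, in percentage points. Thermoneutral BAT library 3 was 42.0 to 53.7 points from every other library, its own group included. Its brown adipocyte markers summed to 6041 CPM, within the range of its group, and no source gives its RNA quality or a check of its label. Means over thermoneutral BAT and the tests that use that group include it, and medians of the tests without it are given below. Among the other 11 libraries, pairs of the same temperature from different tissues lay 4.41 to 16.8 points apart (median 8.80, 15 pairs), and pairs of the same tissue at different temperatures 10.7 to 30.0 points apart (median 17.6, 15 pairs). Pairs within a group lay 4.09 to 14.1 points apart (median 7.33, 10 pairs). With all 12 libraries the medians were 9.66, 20.6 and 8.13 points, and the ranges overlapped widely. Thermoneutral sWAT, whose mitochondrial counts were few, lay 5.90 to 12.0 points from thermoneutral BAT libraries 1 and 2, and 10.7 to 20.6 points from cold sWAT. These distances are a description, since pairs share libraries, and no test was made.

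**Figure D2:**
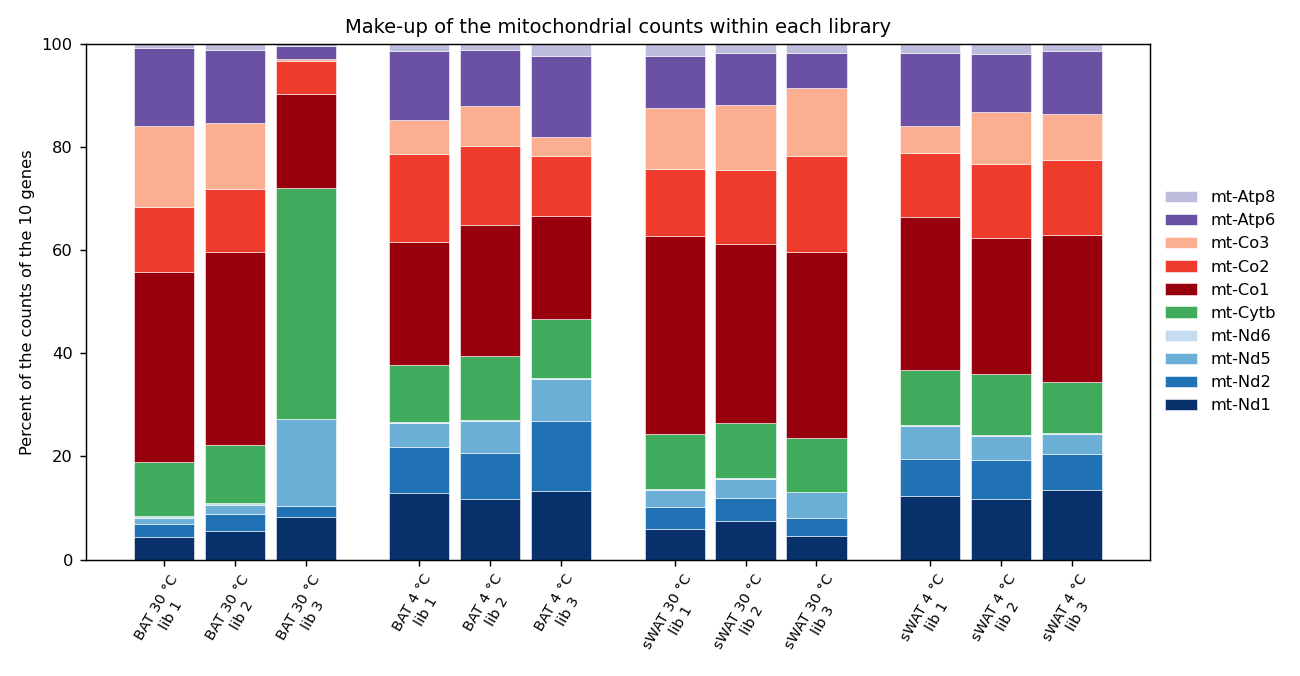
Each bar splits the counts of the 10 genes in 1 library into percent per gene, stacked in blue for complex I, green for complex III, red for complex IV and purple for ATP synthase. In thermoneutral BAT library 3, mt-Cytb fills 44.8% of the bar and mt-Co3 0.50%; elsewhere the blue blocks reach 24.2% to 35.1% in cold libraries and 8.49% to 15.9% in thermoneutral ones.

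Among the members complex I, the entry point for electrons from NADH, was represented by mt-Nd1, mt-Nd2, mt-Nd5 and mt-Nd6. Mitochondrially encoded complex I genes outside the 10 members were not counted. Shares of each complex are therefore shares of these 10 genes and not of all 13. Together they took 8.49, 10.9 and 27.2% of the members' counts in thermoneutral BAT libraries 1, 2 and 3 and 26.7, 27.1 and 35.1% in cold BAT. In sWAT they took 13.7, 15.9 and 13.2% at thermoneutrality and 26.1, 24.2 and 24.6% in cold. In sWAT the cold libraries all lay above the thermoneutral ones (24.95% ± 1.05 against 14.3% ± 1.43, SD, n = 3). In BAT, cold libraries 1 and 2, at 26.7% and 27.1%, fell just under thermoneutral library 3, at 27.2%. The BAT means were 29.6% ± 4.77 in cold and 15.5% ± 10.2 at thermoneutrality (SD, n = 3).

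mt-Nd1 (ENSMUSG00000064341.1, 2751 to 3707 on the plus strand) and mt-Nd2 (ENSMUSG00000064345.1, 3914 to 4951 on the plus strand) encode membrane subunits that carry the proton-pumping arm and its junction with the rest of the complex. In BAT mt-Nd1 stood at 15129, 22291 and 11132 CPM in thermoneutral libraries 1, 2 and 3, and at 38451, 27518 and 119400 CPM in cold ones. In sWAT it stood at 66.5, 140.4 and 54.8 CPM at thermoneutrality and at 36649.8, 23068 and 30161 CPM in cold. The lowest cold library lay above the highest thermoneutral one in both tissues, as it did for 16% of tested genes in BAT and 30.1% in sWAT. Its share of the members' counts ran 4.44, 5.46 and 8.28% in thermoneutral BAT, 12.9, 11.8 and 13.3% in cold BAT, 5.84, 7.53 and 4.59% in thermoneutral sWAT and 12.3, 11.7 and 13.4% in cold sWAT. So the share, like the level, was higher in cold in each tissue without overlap.

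mt-Nd2 followed the same order. It stood at 8211, 14035 and 2853 CPM in thermoneutral BAT and at 26517, 20577 and 121489 CPM in cold BAT, with cold library 3 far above the other two. In sWAT it stood at 49.1, 84.00 and 41.9 CPM at thermoneutrality and at 21559, 14851 and 15658 CPM in cold. Its shares were 2.41, 3.44 and 2.12%, 8.92, 8.84 and 13.5%, 4.30, 4.51 and 3.51% and 7.22, 7.53 and 6.97% in the same order of groups. Here too no cold library of a tissue overlapped with a thermoneutral one, and in cold the BAT shares lay above those of sWAT. mt-Nd1 and mt-Nd2 are the first protein genes on the heavy-strand precursor, and their summed share was 6.85, 8.90 and 10.4% in thermoneutral BAT, 21.9, 20.7 and 26.8% in cold BAT, 10.1, 12.04 and 8.10% in thermoneutral sWAT and 19.5, 19.2 and 20.4% in cold sWAT. All 6 cold libraries thus lay at 19.2% or above and all 6 thermoneutral ones at 12.04% or below. The share of each gene alone already separated these libraries, so their sum had to and is no further result.

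mt-Nd5 (ENSMUSG00000064367.1, 11742 to 13565 on the plus strand) encodes the large subunit at the tip of the membrane arm and lies late on the precursor. It stood at 4411, 6719 and 22552 CPM in thermoneutral BAT, where library 3 was highest, and at 13789, 14496 and 73207 CPM in cold BAT. Levels in sWAT were 38.6, 68.7 and 59.6 CPM at thermoneutrality and 19082, 9334 and 8821 CPM in cold, without overlap. Its share of the members was 1.30, 1.65 and 16.8% in thermoneutral and 4.64, 6.23 and 8.14% in cold BAT libraries 1, 2 and 3. In sWAT the shares were 3.38, 3.68 and 4.99% at thermoneutrality and 6.39, 4.73 and 3.93% in cold. The shares at the 2 temperatures overlapped in both tissues.

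mt-Nd6 (ENSMUSG00000064368.1, 13552 to 14070 on the minus strand) is the only member copied from the other strand. It stood at 1158, 1442 and 50.96 CPM in thermoneutral BAT, 544, 467 and 1742 CPM in cold BAT, 2.14, 3.33 and 1.23 CPM in thermoneutral sWAT and 768, 423 and 498 CPM in cold sWAT. The values in thermoneutral sWAT rest on 92, 137 and 65 counts, and library 3 of thermoneutral BAT was far below libraries 1 and 2. The share of mt-Nd6 was 0.188, 0.178 and 0.103% of the members in thermoneutral sWAT and 0.257, 0.214 and 0.222% in cold sWAT, higher in each cold library, and in BAT the temperatures overlapped. Its neighbour mt-Nd5, which overlaps it tail to tail, had 3.81, 4.66 and 443 counts per count of mt-Nd6 in thermoneutral BAT and 25.4, 31.03 and 42.04 in cold BAT. In sWAT this ratio was 18.02, 20.6 and 48.3 at thermoneutrality and 24.8, 22.1 and 17.7 in cold. The ratio was lowest in thermoneutral BAT libraries 1 and 2 and highest in library 3 of that group.

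Complex III, which passes electrons on to cytochrome c, has mt-Cytb (ENSMUSG00000064370.1, 14145 to 15288 on the plus strand) as its only mitochondrially encoded subunit. It stood at 35539, 45812 and 60202 CPM in thermoneutral BAT and 32809, 28682 and 102928 CPM in cold BAT. In sWAT it stood at 120.3, 199 and 123 CPM at thermoneutrality and 31719.6, 23179 and 22294 CPM in cold. Its share of the members varied little, with 1 exception. In 11 libraries it ran from 9.93% to 12.3%, and in thermoneutral BAT library 3 it was 44.8%. With mt-Nd5, the other late gene of the heavy-strand precursor, it made up 11.7, 12.9 and 61.6% of the members in thermoneutral BAT libraries 1, 2 and 3, against 13.9% to 19.6% in the other 9 libraries.

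Complex IV reduces oxygen to water, and mt-Co1, mt-Co2 and mt-Co3 encode its core. Together they took 65.1, 62.5 and 25.1% of the members in thermoneutral BAT, 47.5, 48.6 and 35.3% in cold BAT, 63.2, 61.6 and 67.9% in thermoneutral sWAT and 47.3, 50.95 and 51.9% in cold sWAT. In sWAT all cold libraries lay below all thermoneutral ones (50.1% ± 2.43 against 64.2% ± 3.27, SD, n = 3). In BAT the cold libraries lay below thermoneutral libraries 1 and 2 and above library 3. The mean difference, cold minus thermoneutral, was −7.13 points in BAT, and it ran from −20.0 to −0.01 when 1 library at a time was left out.

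mt-Co1 (ENSMUSG00000064351.1, 5328 to 6872 on the plus strand) encodes the catalytic subunit. It stood at 125601, 152759 and 24703 CPM in thermoneutral BAT and 70979, 59495 and 179439 CPM in cold BAT. The sWAT values were 439, 647 and 430.1 CPM at thermoneutrality and 88792, 52049 and 63931 CPM in cold. Its share was 38.6, 34.7 and 36.04% in thermoneutral sWAT and 29.7, 26.4 and 28.5% in cold sWAT, lower in each cold library, whereas in BAT 36.9, 37.4 and 18.4% at thermoneutrality overlapped with 23.9, 25.6 and 19.96% in cold. mt-Co2 (ENSMUSG00000064354.1, 7013 to 7696 on the plus strand), which holds the site that takes electrons from cytochrome c, ranged from 8423 to 49798 CPM in thermoneutral BAT, 35687 to 104579 in cold BAT, 147 to 267 in thermoneutral sWAT and 28480.4 to 36717 in cold sWAT, and its shares overlapped between temperatures in both tissues.

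mt-Co3 (ENSMUSG00000064358.1, 8607 to 9390 on the plus strand), the third core subunit, stood at 53272, 52330.1 and 673 CPM in thermoneutral BAT libraries 1, 2 and 3 and 19276, 17873 and 33640.1 CPM in cold BAT. In sWAT it stood at 134, 234 and 156 CPM at thermoneutrality and 15779, 20002 and 19966 CPM in cold. Thermoneutral BAT library 3 was far below the other BAT libraries. The share of mt-Co3 was 11.8, 12.5 and 13.04% in thermoneutral sWAT and 5.28, 10.1 and 8.89% in cold sWAT, lower in each cold library. In BAT it was 15.6, 12.8 and 0.501% at thermoneutrality and 6.49, 7.68 and 3.74% in cold, which overlapped because of library 3. The count of mt-Co1 per count of mt-Co3 was 36.7 in that library and 2.36 to 5.63 in the other 11, although its count per count of mt-Co2, 2.93, lay within the 1.40 to 3.07 of the others.

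ATP synthase uses the gradient to make ATP, and mt-Atp6 (ENSMUSG00000064357.1, 7927 to 8607 on the plus strand) encodes the subunit that forms its proton path. It stood at 51455, 58166 and 3403 CPM in thermoneutral BAT and 39806, 25098 and 140867 CPM in cold BAT. Its sWAT levels were 117, 189 and 82.7 CPM at thermoneutrality and 42388, 22081 and 27236 CPM in cold. Its share was higher in each cold sWAT library (14.2, 11.2 and 12.1%) than in each thermoneutral one (10.2, 10.1 and 6.93%), and in BAT the temperatures overlapped. mt-Atp8 (ENSMUSG00000064356.3, 7766 to 7969 on the plus strand), a small subunit translated from the same messenger, ranged from 421 to 4626 CPM in thermoneutral BAT, 2891 to 21606 in cold BAT, 19.9 to 32.3 in thermoneutral sWAT and 3253 to 5137 in cold sWAT. Its share in BAT was 0.816, 1.13 and 0.313% at thermoneutrality and 1.40, 1.24 and 2.40% in cold, higher in each cold library, and in sWAT the temperatures overlapped. The count of mt-Atp6 per count of mt-Atp8 was 18.5, 12.6 and 8.09 in thermoneutral BAT, 9.58, 8.68 and 6.52 in cold BAT, 4.55, 5.84 and 4.16 in thermoneutral sWAT and 8.25, 5.75 and 8.37 in cold sWAT. These counts are not scaled by gene length, 681 bases for mt-Atp6 and 204 for mt-Atp8, so equal counts would not be looked for. The bases shared by the genes and the nuclear copy of mt-Atp6 also limit this ratio. The ratio was highest in thermoneutral BAT library 1 and lowest in thermoneutral sWAT library 3.

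Per kilobase of gene length, which allows genes to be compared within a library, mt-Co1 and mt-Co2 were among the 3 highest genes in 3 groups. In cold BAT the length-scaled shares were 19.7% for mt-Co2, 17.8% for mt-Atp6, 13.8% for mt-Co1 and 12.1% for mt-Nd1, steps that did not exceed the spread between libraries, followed beyond the spread by mt-Cytb at 9.31%. In cold sWAT mt-Co2 (18.6%), mt-Atp6 (17.0%) and mt-Co1 (16.9%) likewise did not differ beyond their spread and lay above mt-Nd1 (12.1%). In thermoneutral sWAT mt-Co1 (22.2%) and mt-Co2 (21.1%) led beyond the spread over mt-Co3 (14.9%), and mt-Nd1 was at 5.88%. In thermoneutral BAT mt-Cytb led at 21.1% ± 21.1 (SD, n = 3), a mean set by library 3, and of the neighbours in that order only mt-Nd2 (2.57%) and mt-Nd6 (0.45%) differed beyond their spread. mt-Nd6 was last in all 4 group means, at 0.283% to 0.45%.

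For each of the 45 pairs of members the ratio within a library was compared between temperatures. In BAT 10 pairs (22.2%) did not overlap between cold and thermoneutral libraries, against 33.7% of all pairs of tested genes in the table. In sWAT 24 pairs (53.3%) did not overlap, against 59.1% of all pairs. Both lie under the background, so the number of separated ratios within a tissue is not a result about these genes. No such background was computed for shares of the members' counts, which are a description. Across both tissues at once, with 6 cold against 6 thermoneutral libraries, 5 pairs (11.1%) did not overlap, against 5.79% of all pairs. Each ratio was written with the gene on top that made its mean log2 value higher in cold, so the direction was set by this choice. The 5 pairs are named because they separated, as a description with no test.

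The pair mt-Nd2 over mt-Co1 stood at 0.0654, 0.0919 and 0.115 in thermoneutral BAT, 0.374, 0.346 and 0.677 in cold BAT, 0.112, 0.130 and 0.0974 in thermoneutral sWAT and 0.243, 0.285 and 0.245 in cold sWAT. The mean log2 ratio was higher in cold by 2.33 in BAT and 1.20 in sWAT. The ratio of mt-Nd1 to mt-Cytb was 0.426, 0.487 and 0.185 in thermoneutral BAT, 1.17, 0.959 and 1.16 in cold BAT, 0.553, 0.705 and 0.444 in thermoneutral sWAT and 1.16, 0.995 and 1.35 in cold sWAT. Neither of these genes shared an identical stretch of 50 bases with an annotated nuclear copy. The remaining 3 pairs were mt-Nd2 over mt-Cytb, mt-Nd2 over mt-Co2 and mt-Atp6 over mt-Co1, with log2 differences of 2.56, 1.42 and 1.04 in BAT and 0.80, 0.97 and 0.85 in sWAT. Of the 5 pairs, 3 have mt-Nd2 as numerator, so they are not separate observations. In all 5 the numerator had the lower GC content, with mt-Nd2 at 35.7%, mt-Atp6 at 36.0% and mt-Nd1 at 37.6%. The denominators mt-Co2, mt-Cytb and mt-Co1 stood at 38.6%, 39.1% and 39.9%. The part of GC content in these ratios was not tested.

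**Figure D3:**
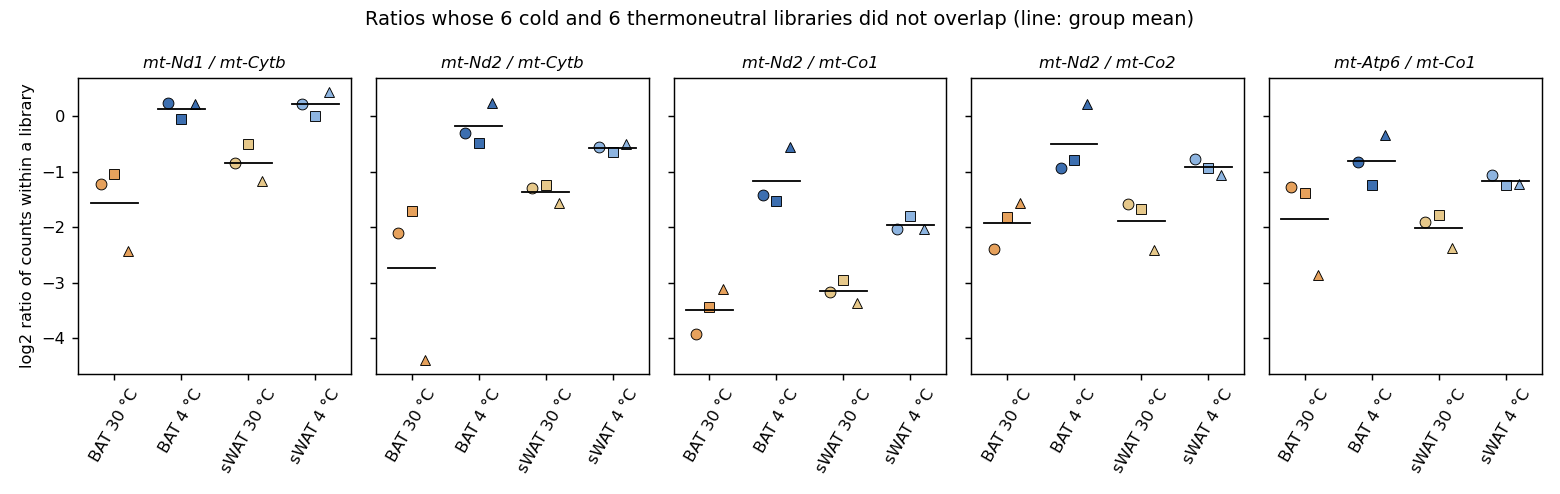
Log2 ratio of counts within each library for the 5 pairs whose 6 cold and 6 thermoneutral libraries did not overlap; columns are groups, symbols are libraries 1, 2 and 3, and lines are group means. Each ratio is written so that its mean is higher in cold, so cold columns lie above thermoneutral columns in each panel by that choice. For mt-Nd2 over mt-Co1 the gap between means is 2.33 in BAT and 1.20 in sWAT.

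Levels were then tested gene by gene on the whole table with edgeR's quasi-likelihood test. In BAT, cold against thermoneutral, 0 of the 10 genes passed an adjusted p of 0.05, against 12.2% of 14612 tested genes. Of the members 2, mt-Nd1 and mt-Nd2, had an unadjusted p under 0.05 and groups whose CPM did not overlap, higher in cold; over all genes such groups were found in 16% in that direction. The DESeq2 test called the same pair, where it called 10.4% of tested genes higher, and limma-voom called 0. The log2 fold changes were 1.99 ± 0.61 (adjusted p = 0.0688) for mt-Nd1, 2.80 ± 0.83 (adjusted p = 0.0626) for mt-Nd2 and 1.64 ± 0.83 (adjusted p = 0.227) for mt-Nd5. The other complex I member, mt-Nd6, had 0.11 ± 0.96 (adjusted p = 0.951). mt-Cytb had 0.27 ± 0.55 (adjusted p = 0.780) and mt-Co1 0.09 ± 0.70 (adjusted p = 0.945). mt-Co2 had 0.98 ± 0.68 (adjusted p = 0.370) and mt-Co3 −0.52 ± 1.08 (adjusted p = 0.782). In ATP synthase mt-Atp6 had 0.93 ± 0.96 (adjusted p = 0.558) and mt-Atp8 1.93 ± 0.96 (adjusted p = 0.220). The median of the 10 was 0.95, against −0.04 for all genes. Without thermoneutral BAT library 3 the median was 0.47 and 0 members passed.

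The BAT result depended on the libraries numbered 3. Without both of them, a setting chosen after seeing the data that left 2 libraries a group, 3 members were higher in cold and 3 lower, against 22.4% and 22.3% of 14566 tested genes, so neither number stands far from the background. mt-Nd1 (0.87, adjusted p = 0.0270), mt-Nd2 (1.13, adjusted p = 0.00965) and mt-Nd5 (1.40, adjusted p = 0.00163) were the higher ones. mt-Nd6 (−1.31, adjusted p = 0.000899), mt-Co1 (−1.04, adjusted p = 0.00775) and mt-Co3 (−1.45, adjusted p = 0.000699) were the lower ones. The member median was then −0.20. Cold library 3 had the lowest slope of log2 CPM on GC content of the 12 libraries, −0.71 per 10 points, and thermoneutral library 3 had −0.40, against −0.16 to 0.26 in the other 4 BAT libraries; the part of this difference in the result was not tested. With offsets that remove each library's slope on GC content, also chosen after seeing the data, mt-Nd1 (1.90, adjusted p = 0.00976) and mt-Nd2 (2.65, adjusted p = 0.0152) passed, as 9.55% of tested genes did in that direction.

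In sWAT, cold against thermoneutral, all 10 genes rose, against 25.1% of 15731 tested genes called higher. All 10 also had groups whose CPM did not overlap, as had 30.1% of tested genes in that direction. The log2 fold changes ran from 6.73 ± 0.50 for mt-Co3 to 8.44 ± 0.67 for mt-Nd1, with adjusted p of 0.000174 to 0.000198 and a median of 7.63, against 0.00 for all genes. mt-Nd2 rose by 8.23 ± 0.58, mt-Nd6 by 7.99 ± 0.56, mt-Atp6 by 7.90 ± 0.64 and mt-Nd5 by 7.81 ± 0.62. mt-Cytb rose by 7.45 ± 0.55, mt-Atp8 by 7.30 ± 0.49, mt-Co2 by 7.27 ± 0.54 and mt-Co1 by 7.08 ± 0.57. Complex I members and mt-Atp6 thus had the larger fold changes and complex IV members the smaller ones, with SEs of 0.49 to 0.67. The brown adipocyte and muscle markers, the ribosomal protein share and the slope on GC content given above differed between the same 2 groups, and lymphocyte markers (10 genes) summed to 766 to 1019 CPM in thermoneutral and 175 to 471 CPM in cold sWAT. Macrophage markers (7 genes) summed to 789 to 1332 CPM in thermoneutral and 244 to 391 CPM in cold sWAT. Their part in the result was not tested. With the offsets for GC content the median was 5.98, and all 10 genes still passed.

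The cold response of sWAT was set against that of BAT in 1 fit over 12 libraries, the difference being the sWAT response minus the BAT response. For all 10 genes it was above 0 and passed, against 17.3% of 16365 tested genes in that direction. It ran from 5.42 ± 1.17 (adjusted p = 0.00625) for mt-Atp8 to 7.93 ± 1.31 (adjusted p = 0.00179) for mt-Nd6, with a median of 6.76 and a median of 0.12 over all genes. The smallest after mt-Atp8 was mt-Nd2, at 5.47 ± 1.04 (adjusted p = 0.00347). With the offsets for GC content the median was 4.92, and without thermoneutral BAT library 3 it was 6.92; all 10 passed in both.

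At thermoneutrality all 10 genes were higher in BAT than in sWAT and passed, against 29.9% of tested genes called higher. The log2 differences ran from 6.65 ± 1.00 for mt-Atp8 to 8.63 ± 1.15 for mt-Nd6, with a median of 7.65 and adjusted p of 2.65e-06 to 0.00017. With the offsets for GC content the median was 5.95, and without thermoneutral BAT library 3 it was 7.95; all 10 passed in both. The comparison shares the thermoneutral sWAT libraries with the one above. In cold 0 of 10 passed between the tissues, against 12.3% of tested genes in either direction, and the CPM of the 2 tissues overlapped for each member, whereas it did not for 35.2% of tested genes. The log2 differences, BAT minus sWAT, ran from 0.34 for mt-Co3 to 1.69 for mt-Nd2, with a median of 1.07. Only mt-Nd2 had an unadjusted p under 0.05 (adjusted p = 0.147), DESeq2 called mt-Nd2 alone among the members (1.79, adjusted p = 0.0301) and 4.41% of tested genes in that direction, and limma-voom called 0. Without cold BAT library 3 the median was 0.24.

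**Figure D4:**
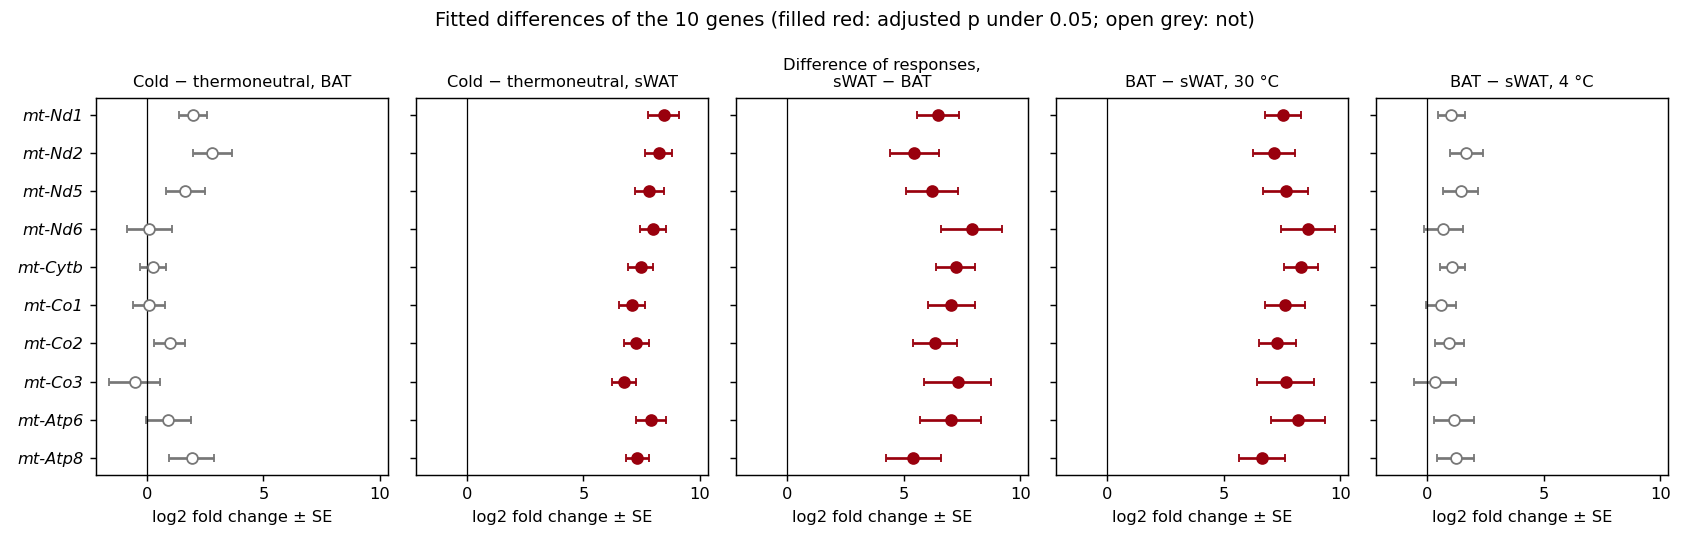
Fitted log2 fold change ± SE of each gene in 5 comparisons, 1 panel each, all on the same axis; filled red points passed an adjusted p of 0.05 and open grey ones did not. In the panels that involve thermoneutral sWAT the points lie between 5.42 and 8.63, and in BAT and between tissues in cold they lie between −0.52 and 2.80.

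The nuclear partners of these genes were counted for comparison, from 82 nuclear genes of the respiratory chain and ATP synthase. In BAT 0 of 82 changed with cold in edgeR, against 12.2% of all tested genes. Of the 82, 8 had an unadjusted p under 0.05, a cut-off for which the share of all tested genes is not given. The median log2 fold change was −0.00. In sWAT 28 rose and 2 fell, with a median log2 fold change of 0.69, against the 7.63 of the mitochondrially encoded members. The sWAT values rest on the thermoneutral libraries that stood apart in ribosomal protein share and slope on GC content. Values with offsets for GC content are not given for nuclear genes, and the part of these differences was not tested. Over all tested genes 3784 of 15731 fell and 25.1% rose. By complex, 10 of 37 nuclear complex I genes rose, 3 of 4 of complex II, 5 of 10 of complex III with cytochrome c, and 4 of 15 of complex IV, so that complexes I and IV lay near that background. In ATP synthase 6 of 16 rose and 2 fell. Uqcrb, a small subunit of complex III, had the largest value, with 3.65, 4.83 and 2.81 CPM in thermoneutral sWAT and 554, 504 and 708 CPM in cold, a log2 fold change of 7.29 ± 0.41 (adjusted p = 0.000174). Cycs, which encodes cytochrome c, rose by 5.09 ± 0.75 (adjusted p = 0.00110), with only 13.5, 6.67 and 1.44 CPM in thermoneutral sWAT. Uqcrc2, a core subunit of complex III, rose by 3.47 ± 0.35 (adjusted p = 0.000308). Ndufs1, the largest subunit of complex I, rose by 3.02 ± 0.32 (adjusted p = 0.000370), Ndufa5, of its arm in the matrix, by 3.87 ± 0.69 (adjusted p = 0.00245), and Sdha, the flavoprotein of complex II, by 2.70 ± 0.40 (adjusted p = 0.00116). Cox7a1, an isoform of complex IV found in muscle and brown fat, rose by 2.98 ± 0.81 (adjusted p = 0.0153). It stood at 82.9, 27.4 and 12.5 CPM in thermoneutral sWAT and 81.1, 446 and 459 CPM in cold, so the groups overlapped. Muscle markers summed to 7357, 20146 and 20046 CPM in cold sWAT libraries 1, 2 and 3, and their part was not tested. Atpif1, an inhibitor of ATP synthase, fell, with −1.38 ± 0.27 (adjusted p = 0.00393). The difference between tissues in the response to cold passed upward for 16 of 82 and downward for 0, and 17.3% of all tested genes passed upward, so the number upward lies near the background.

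Genes that copy, cut and stabilise mitochondrial RNA were counted in the same way. Over all tested genes, 3950 of 15731 were called higher and 3784 lower in cold sWAT. In cold BAT 996 of 14612 were called higher and 781 lower. Of 11 genes of mitochondrial transcription, 7 rose in cold sWAT and 0 changed in BAT, where 1 had an unadjusted p under 0.05. Mterf2, of the termination factor family, rose by 3.72 ± 0.32 (adjusted p = 0.000218) in sWAT, the elongation factor gene Tefm by 1.83 ± 0.36 (adjusted p = 0.00390) and Tfam, which packs mitochondrial DNA and starts transcription, by 1.19 ± 0.24 (adjusted p = 0.00424). Polrmt, the mitochondrial RNA polymerase, had 0.21 ± 0.36 (adjusted p = 0.654) in sWAT and 1.48 ± 0.52 (adjusted p = 0.09998) in BAT. Tfb2m, which helps it open DNA, had 0.85 ± 0.30 (adjusted p = 0.0400) in sWAT and 0.55 ± 0.30 (adjusted p = 0.252) in BAT, and Mterf1a, of the termination factor family, −0.50 ± 0.32 (adjusted p = 0.225) and −0.10 ± 0.34 (adjusted p = 0.870). Of 20 genes of RNA processing and stability, 12 rose in cold sWAT, with a median log2 fold change of 1.23. In cold BAT 1 of the 20 rose, which lies near the 996 of 14612 over all genes. Of the 20, 13 had an unadjusted p under 0.05, and the median was 0.83, against −0.04 for all genes. The share of all tested genes under the unadjusted cut-off is not given, so the numbers under it are not read as results about these lists. In sWAT Ptcd3 rose by 2.99 ± 0.24 (adjusted p = 0.000198), Fastkd2 by 4.06 ± 0.43 (adjusted p = 0.000372) and Fastkd1 by 3.12 ± 0.35 (adjusted p = 0.000431). All 3 encode proteins that bind mitochondrial RNA or ribosomes. Levels in thermoneutral sWAT were low for Fastkd2 (0.70 to 1.78 CPM), Fastkd1 (1.44 to 3.03), Mterf2 (0.61 to 0.95) and Tefm (1.65 to 3.67). The limits of the thermoneutral sWAT libraries given for the nuclear partners hold here too. Lrpprc, which keeps mitochondrial messengers stable together with Slirp, rose by 1.79 ± 0.24 (adjusted p = 0.000735) in sWAT and had 0.88 ± 0.27 (adjusted p = 0.0710) in BAT, and Slirp had 1.30 ± 0.56 (adjusted p = 0.0806) and 0.14 ± 0.32 (adjusted p = 0.810). The BAT call was Rexo2, which degrades short mitochondrial RNA fragments, at 1.60 ± 0.34 (adjusted p = 0.0202). Ppargc1a, a coactivator that drives the making of mitochondria, rose in sWAT by 5.98 ± 0.48 (adjusted p = 0.000198) and in BAT by 2.43 ± 0.51 (adjusted p = 0.0202). Its level in thermoneutral sWAT was 2.44, 2.26 and 1.75 CPM. Of 11 genes that maintain mitochondrial DNA, 3 rose and 5 fell in cold sWAT, and 1 rose and 1 fell in cold BAT. The number that rose in sWAT lies near the 25.1% of all tested genes, and the BAT numbers lie near their background too. Tk2, which supplies mitochondrial nucleotides, fell in both, with −1.73 ± 0.22 (adjusted p = 0.000612) in sWAT and −1.12 ± 0.28 (adjusted p = 0.0372) in BAT. Twnk, the helicase of mitochondrial DNA, rose in BAT by 1.11 ± 0.28 (adjusted p = 0.0369).

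Genes of the nucleus whose log2 CPM most resembled the mean of the 10 members were ranked by Pearson's r. Over 12 libraries, among 8486 genes, they were Cops2 (0.995), Rab1a (0.993), Ppp6c (0.9899), AW549877 (0.986) and Dnm1l (0.985), the last encoding a protein that divides mitochondria. Over the 6 BAT libraries, among 8383 genes, they were Naa50 (0.998), Ap3s1 (0.996), Mtpn (0.989), Rbm18 (0.989) and Eif5 (0.988). None of these was in both sets. The libraries behind each value share depth and GC dependence, and over the 12 libraries the 3 of thermoneutral sWAT stand far from the rest, so the ranking is a description.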

How the data were processed

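RNA sequencing counts from 12 libraries were used. The deposited table holds the authors' raw counts per gene symbol, whole numbers without normalization. Per the submitters' processing notes, STAR, DESeq2 and the mm10 build were used. Versions, counting tool, strand setting and annotation: not given in the sources used here. Per the labels, 1000 ng of RNA went into TruSeq libraries read as 100 nt pairs. The column names of cold BAT library 1 and cold sWAT library 2 begin with the word Merged, without explanation. No pair of libraries was identical.

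Tests used edgeR 4.0.16 under R 4.3.3 (filterByExpr, TMM scaling, glmQLFit with robust=TRUE, glmQLFTest), with Benjamini-Hochberg adjustment over every tested gene and a threshold of 0.05. Each SE was obtained from the fold change and the root of the F statistic. BAT and sWAT were fitted apart for cold against thermoneutral, and 1 fit with 4 group means gave the other 3 comparisons. Alternatives included DESeq2 1.42.0 and limma-voom (limma 3.58.1). The code of the fits was run on simulated counts with the same relative spread for every gene. That setting differs from the spread of the members in BAT, so the run does not bear on the results here. Printed CPM are scaled by TMM over 12 libraries. Shares and ratios use counts within a library; Wilson 95% intervals of the members' share of a library were at most 0.0338 points wide and cover counting error only. A step in the order per kilobase counts as beyond the spread where the mean log2 ratio exceeds its SD over 3 libraries and is above 0 in each. GC content, lengths, positions and nuclear copies came from GENCODE M21, with a GC value for 22240 symbols (96.02%).

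The members and lists were chosen with earlier results of these data known. The named genes are the 10 members, fixed tissue and mitochondrial expression genes, up to 4 called genes of each nuclear list by adjusted p (up to 2 if none was called), and the 5 most similar genes among those whose mean log2 CPM was 3 or more; not all are printed. The titles give each library an experiment number, 1 to 3, and do not say what it marks. Deviations of same-numbered libraries correlated by −0.47 to 0.53 over all pairs of groups compared, and by 0.07 to 0.31 between the 2 BAT groups. Numbers were not used as pairs in the reported tests, and a fit with them as blocks is given below.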

Additional observations from a re-analysis of the deposited data

Results flagged for a closer look

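The response to cold differed between the tissues for all 10 transcripts in the fit over 12 libraries, by the test of the difference itself (edgeR's quasi-likelihood test, Benjamini-Hochberg adjustment over all genes, adjusted p of 0.000362 to 0.00625). The log2 response of sWAT minus that of BAT was 6.49 for mt-Nd1, 5.47 for mt-Nd2, 6.21 for mt-Nd5 and 7.93 for mt-Nd6. It was 7.23 for mt-Cytb, 7.04 for mt-Co1, 6.34 for mt-Co2 and 7.32 for mt-Co3. It was 7.02 for mt-Atp6 and 5.42 for mt-Atp8. All 10 values rest on the 3 thermoneutral sWAT libraries, whose ribosomal protein share was 7.18% to 8.14%, against 0.338% to 1.85% in the other 9 libraries. With offsets for GC content the median of the 10 fell from 6.76 to 4.92, and without both BAT libraries numbered 3 it was 7.74; all 10 passed in each case.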

How the results depend on the processing

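Member folds kept their direction and side of the threshold in all 170 alternatives in sWAT, 240 for the difference of responses and 230 between tissues at thermoneutrality. In BAT 150 did, and in cold 225 between tissues. The number of members called in BAT, 0 in the reported test, was 1 with library totals alone, 1 with no filter, 2 with DESeq2, 2 with offsets for GC content and 6 without both BAT libraries numbered 3, the last 2 chosen after seeing the data; between tissues in cold DESeq2 called 1. With the replicate block 1 was called in BAT (mt-Nd5, 1.54, adjusted p = 0.0291), and calls over all genes were 2799 against 1777 in BAT and 6509 against 7734 in sWAT. The sample titles call the numbers experiments without saying what an experiment shared. In BAT same-numbered libraries correlated by 0.31, 0.07 and 0.29. Of these 0.07 fell short of the 0.1 asked of every pair. Between the BAT groups differently numbered libraries correlated by −0.38 to 0.24, and most BAT libraries correlated best with their own number. Between the sWAT groups same-numbered libraries correlated by −0.23, 0.19 and −0.31, and differently numbered ones by −0.42 to 0.46. Over all groups a library correlated best with its own number in 10 of 24 cases. Whether the numbers mark pairs in BAT is thus not settled. Calls over all genes in BAT were 588, 503 and 2182 without thermoneutral library 1, 2 or 3, and 529, 451 and 2483 without cold library 1, 2 or 3, with 0 members called each time. Reversed values in BAT were mt-Nd6 −0.029 and mt-Co1 −0.055 with upper quartile scaling, mt-Nd6 −0.48, mt-Cytb −0.48 and mt-Co1 −0.50 with totals alone, and mt-Co3 0.89 with limma-voom and 0.061 with the replicate block. Leaving out 1 library gave mt-Nd6 −0.74 to 0.70, mt-Co1 −0.57 to 0.55, mt-Cytb −0.57 to 0.56 and mt-Atp6 −0.15 to 1.42 (lowest to highest). Without both libraries numbered 3 they were mt-Nd6 −1.31, mt-Cytb −0.35, mt-Co1 −1.04, mt-Co2 −0.044, mt-Atp6 −0.70 and mt-Atp8 −0.020. Between tissues in cold they were mt-Co1 −0.020 and mt-Co3 −0.20 with totals alone; leaving out 1 library gave mt-Nd6 −0.026 to 1.22 and mt-Atp8 −0.077 to 1.82, the lowest without cold BAT library 3. Totals alone moved the median of all genes to −0.61 in BAT and −0.73 in sWAT. Per 100 counts of genes that are not mitochondrially encoded, the members had 41.05 in thermoneutral BAT, 51.7 in cold BAT and 31.8 in cold sWAT. The cold minus thermoneutral difference of the share of the complex I members in sWAT was 10.7 points of the counts of the 10. As a share of the counts of all 13 mitochondrially encoded genes it was 9.42. There the other 3 entered the total alone, so 9.42 is not the change of the whole complex I share among the 13. In BAT the 10.6 to 19.9 points found on leaving out 1 library surround 14.1. The complex III difference in BAT was −10.5 and ran from −16.4 to 0.77. The causes were not tested. The 3 libraries a group and 65 to 137 counts of mt-Nd6 in thermoneutral sWAT limit the precision.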
